A study of Homo sapiens with 6 samples.

Results

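The heat shock proteins and DNAJ proteins are the molecular chaperones of the cell, and their mRNAs were followed here in HCT-116 cells, an established human colorectal carcinoma line, after antisense knockdown of the long noncoding RNA CASC9. Rows of the expression table were taken when a gene symbol began with HSPA, HSPB, HSPD, HSPE, HSPH or HSP90, or was a DNAJA, DNAJB or DNAJC gene, or was HSF1, HSF2 or BAG3, and symbols ending in P and a digit were dropped. This gave 77 rows of 27918, of which 68 passed a filter of at least 0.1 FPKM on average and were among the 16028 rows tested. The rule on symbols ending in P and a digit also dropped the co-chaperone genes HSPBP1 and HSPBAP1, which are described with the co-factors, and the rule kept the annotated pseudogenes HSPA7, HSP90AA2P, HSP90AA4P, HSP90AA5P and HSP90AB2P.

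Cells received a GapmeR against CASC9 (GapC9) or a negative control GapmeR (GapNC) at 10 nM, and 3 libraries of poly(A) RNA were sequenced for each group. A GapmeR is an antisense oligonucleotide that directs RNase H to cut the RNA it pairs with, and both groups were transfected with the same lipid reagent. The methods give 48 h from transfection to harvest and the results give 24 h. The labels do not say whether replicates came from separate cultures, so p-values measure only the spread between these 6 libraries, which may be technical. FPKM are fragments scaled both to the kilobases of the transcript and to library depth, so levels of different genes could be compared.

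Chaperones of the HSP70 family bind exposed stretches of unfolded protein in a cycle driven by ATP. DNAJ proteins deliver the substrate and start ATP hydrolysis, nucleotide exchange factors such as the HSP110 and BAG proteins reset the cycle, and HSP90 takes over partly folded clients such as kinases and receptors. Small heat shock proteins hold unfolded protein without ATP, and the mitochondrial chaperonin folds imported proteins inside a closed chamber. Upon heat or proteotoxic stress, the transcription factor HSF1 binds heat shock elements and raises many, but not all, of these genes, while stress in the endoplasmic reticulum (ER) acts on a separate group through other factors. Tumor cells are known to keep high chaperone levels.

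The summed FPKM of the 6 libraries were between 152661 and 166816. By the smallest steps in the values, the libraries held between 22.7 and 24.4 M (mega) fragments if the commonest step is 1 fragment. Of 8 colorectal epithelial marker genes, 7 averaged at least 1 FPKM and VIL1 did not, while 0 of 5 leukocyte and 0 of 4 endothelial markers did. Of the 5 fibroblast markers chosen, 3 had a row, and 2 of these averaged at least 1 FPKM. The fibroblast markers summed to 4.11 to 5.68 FPKM in GapNC and 4.34 to 5.28 FPKM in GapC9. The targeted CASC9 was listed at 0, 0.0108 and 0 FPKM in GapNC replicates 1, 2 and 3 and at 0.0528, 0.107 and 0 FPKM in GapC9 replicates 1, 2 and 3. These values were too low to check the labels and were not lower in GapC9, so every direction given here rests on the labels. In bulk RNA, fewer cells of a type and less RNA per cell cannot be told apart.

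The promoters below show the 2 sequence elements that the stress pathways are known to read. The sequences are from RefSeq on GRCh38.p14 and cover the 250 bases before a transcription start. Capitals mark heat shock elements, searched as GAANNTTC (2 units) and as GAANNTTCNNGAA or TTCNNGAANNTTC (3 units, each of which also holds a match of 2 units), or the ER stress element, searched as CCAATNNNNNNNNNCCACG, all on both strands. The first 4 are heat shock genes of the cytosol at chr6:31815293-31815542 (HSPA1A, plus strand), chr6:31827488-31827737 (HSPA1B, plus strand), chr11:123062137-123062386 (HSPA8, minus strand) and chr6:44247693-44247942 (HSP90AB1, plus strand, the start of 3 listed whose window holds the element). The last 2 are the ER chaperones HSPA5, at chr9:125241344-125241593 (minus strand), and HSP90B1, at chr12:103930160-103930409 (plus strand).
HSPA1A: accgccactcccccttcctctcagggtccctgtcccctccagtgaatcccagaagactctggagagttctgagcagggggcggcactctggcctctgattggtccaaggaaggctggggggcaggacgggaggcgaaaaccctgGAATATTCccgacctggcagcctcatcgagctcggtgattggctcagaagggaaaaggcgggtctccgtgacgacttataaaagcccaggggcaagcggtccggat
HSPA1B: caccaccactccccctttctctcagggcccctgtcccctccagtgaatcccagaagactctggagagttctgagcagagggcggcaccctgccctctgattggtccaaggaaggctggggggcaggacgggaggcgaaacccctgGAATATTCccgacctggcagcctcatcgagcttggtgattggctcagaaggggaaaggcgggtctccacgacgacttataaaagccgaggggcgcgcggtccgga
HSPA8: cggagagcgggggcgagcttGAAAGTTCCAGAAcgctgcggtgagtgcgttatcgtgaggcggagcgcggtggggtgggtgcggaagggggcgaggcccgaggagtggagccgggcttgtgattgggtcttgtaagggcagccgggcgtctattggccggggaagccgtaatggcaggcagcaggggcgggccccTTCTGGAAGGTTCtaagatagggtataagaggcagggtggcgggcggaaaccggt
HSP90AB1: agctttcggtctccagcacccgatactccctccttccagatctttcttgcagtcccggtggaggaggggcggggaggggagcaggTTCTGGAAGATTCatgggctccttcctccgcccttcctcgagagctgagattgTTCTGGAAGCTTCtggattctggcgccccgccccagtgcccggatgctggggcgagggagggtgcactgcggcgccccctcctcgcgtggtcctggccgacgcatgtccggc
HSPA5: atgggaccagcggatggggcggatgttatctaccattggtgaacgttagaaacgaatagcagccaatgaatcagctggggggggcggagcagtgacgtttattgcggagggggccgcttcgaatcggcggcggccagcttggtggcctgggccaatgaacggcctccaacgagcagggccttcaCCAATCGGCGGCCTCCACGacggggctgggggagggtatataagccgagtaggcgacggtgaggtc
HSP90B1: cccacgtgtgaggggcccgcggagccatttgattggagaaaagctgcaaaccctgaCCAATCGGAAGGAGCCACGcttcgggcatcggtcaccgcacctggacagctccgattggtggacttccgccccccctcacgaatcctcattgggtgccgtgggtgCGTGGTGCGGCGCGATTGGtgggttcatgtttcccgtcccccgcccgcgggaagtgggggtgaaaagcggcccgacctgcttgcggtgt

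HSPA1A and HSPA1B encode the inducible HSP70, and over the 300 bases from 250 before to 50 after the start their windows were 92.6% identical (277 of 299 aligned bases). Both carried 1 heat shock element of 2 units, from −106 to −99 in HSPA1A and from −105 to −98 in HSPA1B, counted from 0 at the start. HSPA8, the constitutive HSP70, carried elements of 3 units from −230 to −218 and from −55 to −43. HSP90AB1 carried elements of 3 units from −165 to −153 and from −112 to −100.

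Over the 300-base windows, 63 of 77 member symbols matched a RefSeq promoter, with 83 windows in all. A heat shock element of 2 units was found in 18 of the 83 windows (21.7%), against 6.77% of 35116 windows of the table. Some of the 83 windows overlap, and the site at chr6:31815437-31815444 was counted for both HSPA1A and HSPA1L. The form of 3 units was found in 7 of 83 (8.43%), against 0.49% of all windows. Those were windows of DNAJA1, DNAJB6, HSP90AA1, HSP90AB1, HSPA6, HSPA8 and HSPD1. The ER stress element was found in 2 of 83 (2.41%), those of HSPA5 and HSP90B1, against 0.0769% of all windows. These matches describe letters in the windows and were not measured as bound in these cells.

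In GapC9 against GapNC, the summed chaperone mRNA was of a similar level, and 2 J proteins passed the test. The 77 rows summed to 4458, 4706 and 4311 FPKM in GapNC replicates 1, 2 and 3 and to 4519, 4350 and 4354 FPKM in GapC9 replicates 1, 2 and 3. The groups overlapped, at 4492 ± 200 (mean ± SD, n = 3) and 4408 ± 96.4 (n = 3), and the sum was 2.67% to 2.97% of all FPKM in a library. HSP90AB1, the constitutive cytosolic HSP90, held 35.5% of the members' summed mean, HSP90AA1 (the inducible HSP90) 14.5% and HSPA8 11.6%. The leading 10 members held 87.5%, HSPA8 being followed among them by HSPD1, HSP90B1, HSPA5, HSPA9, HSPB1, DNAJA1 and HSPA4 in falling order. In that order HSP90AB1, HSPD1, HSP90B1 and DNAJA1 lay above the next member in all 6 libraries. HSP90AA1 and HSPA8 overlapped in range, as did HSPA8 and HSPD1, HSPA5 and HSPA9, HSPA9 and HSPB1, and HSPB1 and DNAJA1.

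**Figure D1:**
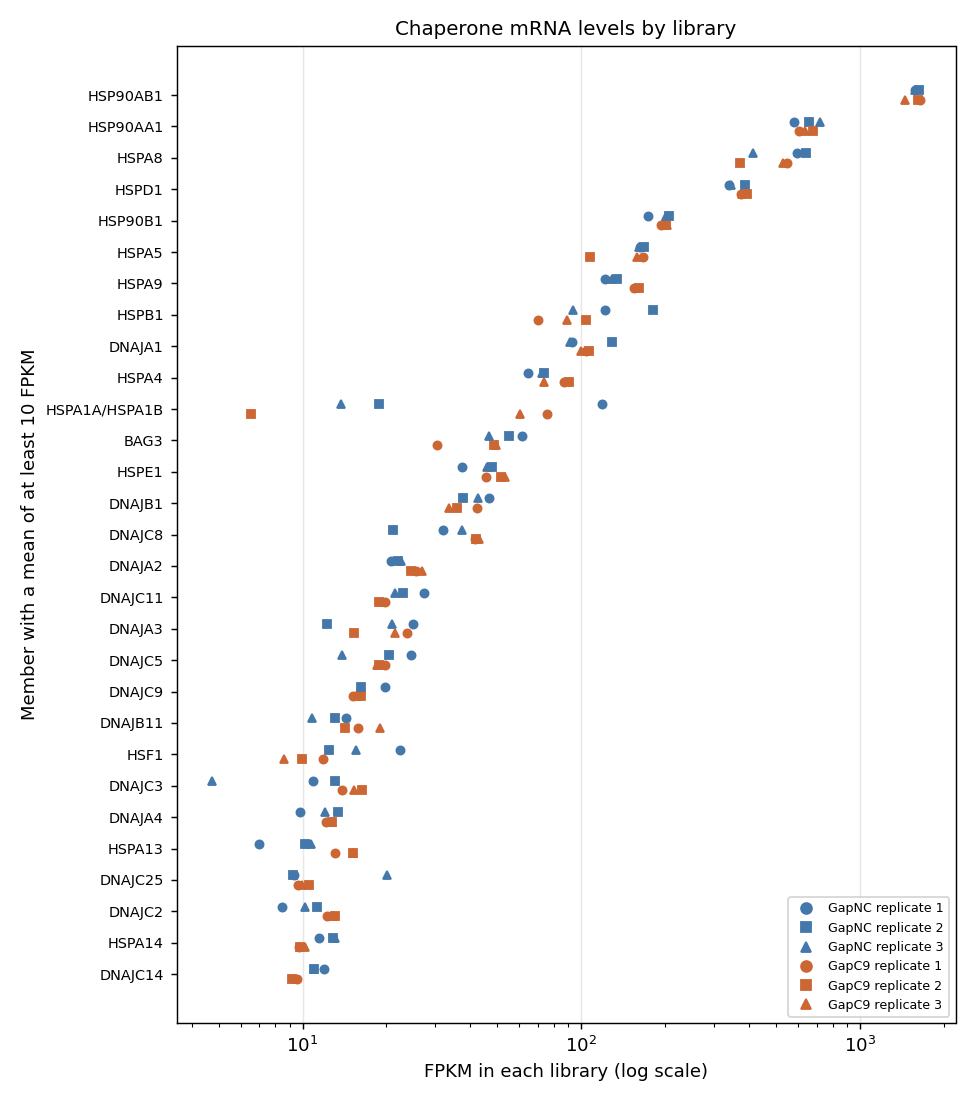
FPKM (log scale) of the 29 members with a mean of at least 10 FPKM, in each of the 3 GapNC and 3 GapC9 libraries, with 1 point a library. Means span from 10.3 FPKM for DNAJC14 to 1581 FPKM for HSP90AB1. The highest library was at least 2 times the lowest in 9 of the 29 members. The widest spread was that of HSPA1A/HSPA1B, which ran from 6.55 to 119 FPKM.

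Of the 68 members tested, 34 had a higher and 34 a lower fitted mean in GapC9, and their median log2 fold change was 0.0014, beside −0.076 over all rows tested. By limma at an adjusted p under 0.05, 1 member rose (DNAJC21) and 1 fell (DNAJC13), or 2 of 68 (2.94%), beside 6.99% of all rows. By direction, 1.89% of all rows rose and 5.1% fell. At an unadjusted p under 0.05 there were 21 members (30.9%), 14 with higher and 7 with lower means, beside 25.9% of all rows. The libraries of both groups did not overlap for 25 members (36.8%), beside 34.2% of all rows. GapC9 lay above in 18 of the 68 members tested, beside 12.6% of all rows tested. It lay below in 7 of the 68, beside 21.6%. Of the 5486 rows without overlap among all rows tested, 2022 lay above and 3464 below. The fold was small for most members, with an absolute log2 fold change under 0.5 in 50 of 68 and of at least 1 in 3. Among the 29 members of at least 10 FPKM 0 were called by limma, beside 6.61% of the 3236 rows at that level. An unadjusted p under 0.05 was found for 9 of these members (31.0%, beside 26.4% of those rows).

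**Figure D2:**
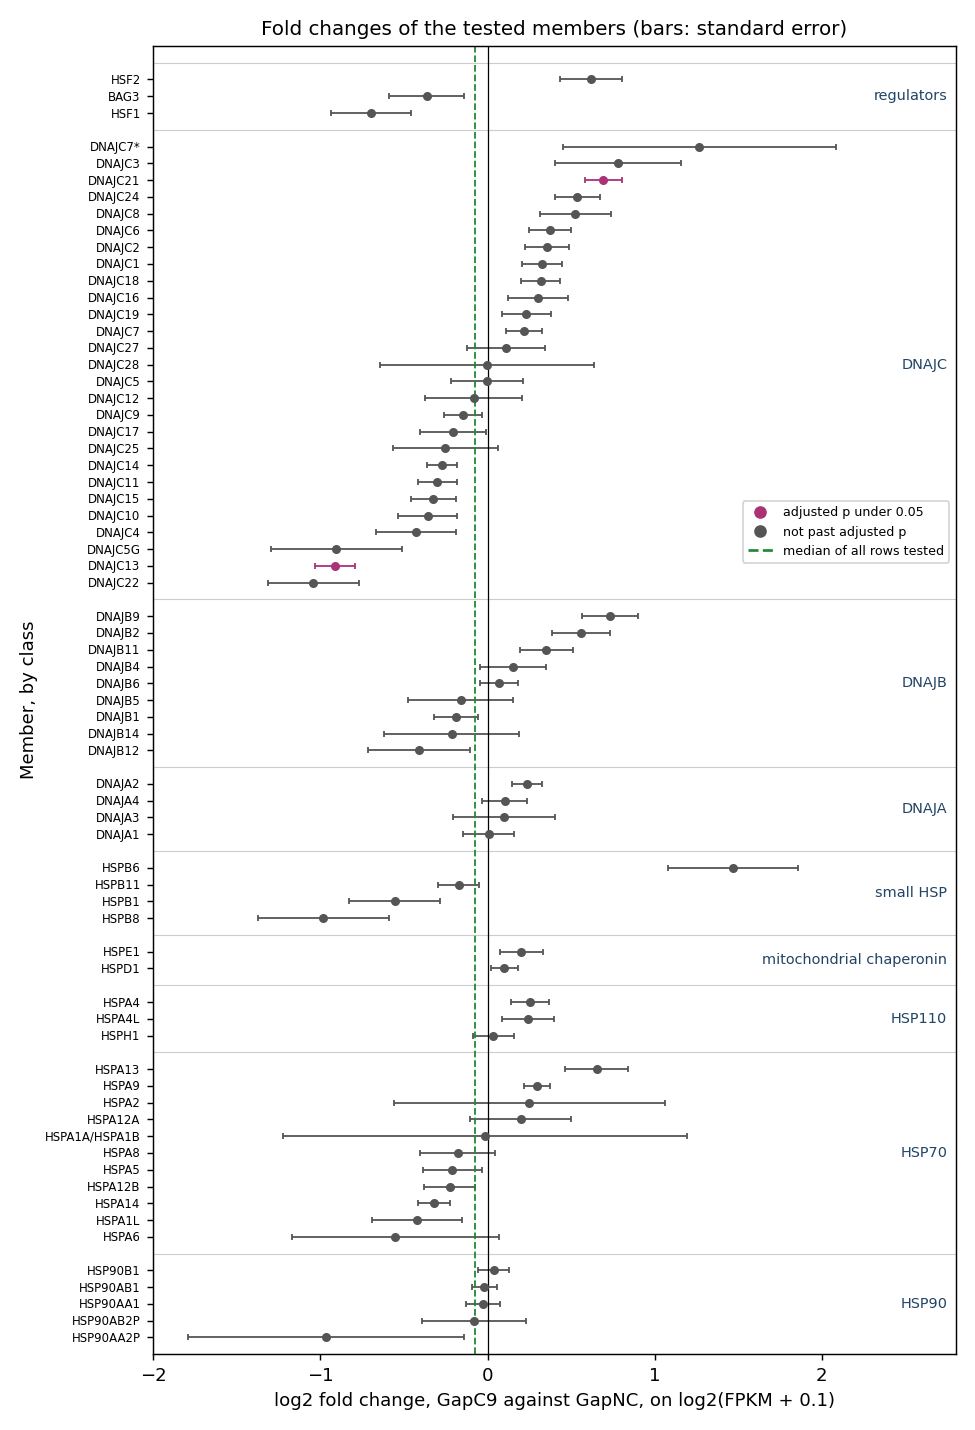
Fitted log2 fold change of the 68 members tested, GapC9 against GapNC, on the log2(FPKM + 0.1) scale, with bars for the standard error, grouped by class (DNAJC7* is the second of 2 rows with that symbol). Most members lie within 0.5 of 0, and the 2 colored points, DNAJC13 at −0.91 and DNAJC21 at 0.69, are those past an adjusted p of 0.05.

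The J proteins of class C, which share the J domain and little else, held both calls, 2 of 27 rows (7.41%), close to the 6.99% of all rows. DNAJC13 (locus MSTRG.13098, on the plus strand of chr3:132417526-132539032 in GRCh38) encodes a protein of early endosomes that works in sorting of membrane cargo. Its level was 6.47, 7.70 and 7.75 FPKM in GapNC replicates 1, 2 and 3 and 3.6, 3.78 and 4.09 FPKM in GapC9 replicates 1, 2 and 3. Every GapC9 library lay below every GapNC library. DNAJC13 fell by 0.91 on the log2 scale (SE 0.12, adjusted p = 0.0210, limma). Leaving out a library moved this adjusted p to values from 0.0259 to 0.0983, staying under 0.05 without GapNC replicate 1 and passing above it without GapNC replicate 2 or 3 or GapC9 replicate 1, 2 or 3.

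DNAJC21 (locus MSTRG.14162, plus strand of chr5:34929559-34958964) encodes a protein that takes part in maturation of the large ribosomal subunit. It was measured at 3.38, 3.94 and 3.95 FPKM in GapNC and at 6.34, 6.13 and 5.90 FPKM in GapC9, in replicate order. The GapC9 libraries lay close together and above the GapNC libraries. DNAJC21 rose by 0.69 on the log2 scale (SE 0.11, adjusted p = 0.0298, limma). The same step gave DNAJC21 adjusted p-values from 0.0340 to 0.117, again under 0.05 without GapNC replicate 1 and above it without any of the other 5 libraries. No exon of another annotated gene overlapped DNAJC13 or DNAJC21.

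DNAJC22 was the member past the fold threshold in the lower direction, a ratio of mean FPKM of at most 0.5 with an unadjusted p under 0.05, which 4.32% of all rows passed. It was measured at 4.82, 5.31 and 5.26 FPKM in GapNC and at 3.32, 1.56 and 2.77 FPKM in GapC9. The groups did not overlap, and GapC9 replicate 2 was the lowest. Its ratio was 0.498 and its log2 fold change −1.04 (SE 0.27, adjusted p = 0.0790, limma), past the fold threshold by little. Without GapNC replicate 2 and under median scaling 0 members passed that threshold in the lower direction.

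Of the 27 class C rows tested, 13 had higher and 14 lower means, with a median log2 fold change of −0.0032 (−0.076 over all rows), and 15 had groups that did not overlap (55.6%, beside 34.2% of all rows). GapC9 lay above in 10 of the 27 and below in 5 of the 27, beside 12.6% and 21.6% of all rows tested. Those with GapC9 above were DNAJC1, DNAJC2, DNAJC3, DNAJC6, both rows of DNAJC7, DNAJC8, DNAJC18, DNAJC21 and DNAJC24. Those with GapC9 below were DNAJC11, DNAJC13, DNAJC14, DNAJC15 and DNAJC22. The row of DNAJC14 also holds SARNP and AC023055.1, so its level cannot be assigned to DNAJC14 alone. DNAJC8, a factor associated with splicing and the most abundant of the class, was measured at 31.9, 21.0 and 37.3 FPKM in GapNC and at 41.6, 41.9 and 43.1 FPKM in GapC9. The GapC9 libraries were tight and above a scattered control, with a log2 fold change of 0.53 (SE 0.21, adjusted p = 0.191, limma). DNAJC11, a protein of the mitochondrial membranes and the next in level, was measured at 27.3, 22.9 and 21.4 FPKM in GapNC and at 19.7, 18.7 and 19.3 FPKM in GapC9. Its groups lay apart in the other direction, with a log2 fold change of −0.30 (SE 0.12, adjusted p = 0.179, limma). DNAJC24, which acts in the synthesis of diphthamide on elongation factor 2, was measured at 0.945, 1.1 and 1.07 FPKM in GapNC and at 1.44, 1.52 and 1.70 FPKM in GapC9. Both groups were narrow and apart, with a log2 fold change of 0.54 (SE 0.13, adjusted p = 0.0679, limma).

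The class A and B J proteins serve HSP70s of the cytosol and of other compartments. By limma 0 of their 13 rows tested were called (6.99% of all rows), and 3 had an unadjusted p under 0.05 (25.9% of all rows). DNAJA1, the leading cytosolic partner of HSPA8, was measured at 92.5, 129 and 91.2 FPKM in GapNC and at 104, 106 and 99.7 FPKM in GapC9. The GapC9 values fell inside the GapNC range, with a log2 fold change of 0.0059 (SE 0.15, adjusted p = 0.988, limma). DNAJA2 was measured at 20.7, 22.1 and 22.6 FPKM in GapNC and at 25.6, 24.6 and 26.8 FPKM in GapC9. Its groups lay apart by a small step, with a log2 fold change of 0.23 (SE 0.088, adjusted p = 0.167, limma). DNAJB1, the HSP40 of the classic heat shock response, was measured at 46.8, 37.5 and 42.6 FPKM in GapNC and at 42.2, 35.8 and 33.5 FPKM in GapC9. The groups overlapped (log2 fold change −0.19, SE 0.13, adjusted p = 0.421, limma).

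The mRNAs known to follow heat shock factor are where proteotoxic stress would be looked for, and 0 of the 13 rows on a list of them were called by limma, beside 6.99% of all rows. Of these, 5 had higher and 8 lower means, the median log2 fold change was −0.026 (−0.076 over all rows), 1 had an unadjusted p under 0.05 (HSPB8, or 7.69% beside 25.9% of all rows), and 0 had groups that did not overlap (34.2% of all rows). The 13 rows summed to 1999 ± 171 FPKM in GapNC and 1886 ± 70.4 FPKM in GapC9 (mean ± SD, n = 3 each). Most of these sums came from HSP90AA1, HSPA8 (the constitutive HSP70) and HSPD1, at means of 645, 516 and 369 FPKM over the 6 libraries. HSP90AA1 was measured at 578, 657 and 721 FPKM in GapNC and at 602, 676 and 637 FPKM in GapC9. All 3 GapC9 values lay inside the GapNC range. HSPA8 was measured at 594, 639 and 414 FPKM in GapNC and at 549, 372 and 530 FPKM in GapC9. GapNC replicate 3 and GapC9 replicate 2 were the low libraries of their groups, and the groups overlapped (log2 fold change −0.18, SE 0.22, adjusted p = 0.653, limma). HSP90AB1, outside that list, was measured at 1575, 1628 and 1570 FPKM in GapNC and at 1643, 1621 and 1448 FPKM in GapC9. Its highest and lowest libraries were both in GapC9, and it was the steadiest of the 29 members of at least 10 FPKM, the highest library being 1.14 times the lowest.

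The HSPA1A/HSPA1B row stood apart by its spread between libraries of the same group. It was measured at 119, 18.8 and 13.8 FPKM in GapNC replicates 1, 2 and 3 and at 75.5, 6.55 and 60.2 FPKM in GapC9 replicates 1, 2 and 3. GapNC replicate 1 and GapC9 replicates 1 and 3 were high, the other 3 libraries were low, and both groups held high and low libraries. The highest library was 18.1 times the lowest, while the median of that ratio was 1.46 over the 29 members of at least 10 FPKM and 1.56 over the 3204 rows at that level with no library at 0. A ratio of at least 10 was found in 1 of those 29 members and in 46 of those 3204 rows (1.44%), and 28 rows exceeded that of HSPA1A/HSPA1B. The log2 fold change was −0.015 (SE 1.21, adjusted p = 0.997, limma), and it was 0.94 without GapNC replicate 1 and 1.1 without GapC9 replicate 2. With this spread a difference of the size seen in DNAJC13 was not detectable for the row. The table gives both genes in 1 row, so these near-identical copies could not be separated. The ratio of HSPA8 to HSPA1A/HSPA1B ran from 5.0 in GapNC replicate 1 to 56.8 in GapC9 replicate 2, whereas that of HSP90AB1 to HSP90AA1 ran from 2.18 to 2.73 over the 6 libraries.

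DNAJB1, BAG3, HSPB8 and HSPA6 were also highest in GapNC replicate 1, but BAG3 was lowest in GapC9 replicate 1 and HSPB8 in GapC9 replicate 3, libraries in which HSPA1A/HSPA1B was high. HSPH1, an HSP110 that exchanges nucleotide on HSP70, was measured at 8.05, 10.1 and 9.91 FPKM in GapNC and at 9.23, 9.76 and 9.67 FPKM in GapC9. It was lowest in GapNC replicate 1, the library in which HSPA1A/HSPA1B was highest. HSPA6, a strictly inducible HSP70, was listed at 0.273, 0.237 and 0 FPKM in GapNC and at 0, 0.0675 and 0.138 FPKM in GapC9. No library held it at 1 FPKM. DNAJB4, whose row also holds GIPC2, was measured at 2.23, 2.76 and 2.89 FPKM in GapNC and at 2.74, 2.41 and 3.72 FPKM in GapC9. Its groups overlapped (log2 fold change 0.15, SE 0.20, adjusted p = 0.669, limma).

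Of the 4 small heat shock proteins tested, 3 had lower means in GapC9, beside 9035 of the 16028 rows tested. An unadjusted p under 0.05 was found for 2 (50%, beside 25.9% of all rows), and 0 were called by limma (6.99% of all rows). HSPB1 (HSP27), the most abundant of them, was measured at 122, 181 and 93.5 FPKM in GapNC and at 70.1, 104 and 89.1 FPKM in GapC9. The groups overlapped, GapNC replicate 2 being the highest (log2 fold change −0.56, SE 0.27, adjusted p = 0.258, limma). HSPB8, which acts with BAG3 in the removal of misfolded protein, was measured at 2.74, 2.49 and 2.18 FPKM in GapNC and at 1.01, 2.27 and 0.727 FPKM in GapC9. GapC9 replicate 2 lay within the control range and the other 2 lay below it (log2 fold change −0.98, SE 0.39, adjusted p = 0.184, limma). HSPB11, known as a part of the intraflagellar transport machinery, was measured at 3.80, 3.52 and 4.02 FPKM in GapNC and at 3.41, 3.61 and 3.01 FPKM in GapC9. The groups overlapped (log2 fold change −0.17, SE 0.12, adjusted p = 0.420, limma).

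HSPB6, a small heat shock protein best known from muscle, was the member past the fold threshold in the higher direction (ratio of at least 2 with an unadjusted p under 0.05), which 2.1% of all rows passed. It was listed at 0.157, 0.0332 and 0 FPKM in GapNC and at 0.270, 0.327 and 0.361 FPKM in GapC9. The groups did not overlap, at levels near the filter and with 1 control library at 0. The log2 fold change was 1.47 (SE 0.39, adjusted p = 0.0805, limma) and depends on the pseudocount at this level. The adjusted p was 0.0334 without GapNC replicate 1. An exon of AC002398.2 overlaps HSPB6 on the other strand, and without strand the reads of both cannot be told apart.

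Of the 3 regulators 0 were called by limma (6.99% of all rows) and 2 had an unadjusted p under 0.05 (66.7%, beside 25.9% of all rows). These were HSF1 and HSF2, which lay in opposite directions. HSF1, the main activator of heat shock genes, was measured at 22.4, 12.5 and 15.6 FPKM in GapNC and at 11.8, 9.95 and 8.58 FPKM in GapC9. The groups did not overlap, with GapNC replicate 1 far above the others (log2 fold change −0.70, SE 0.24, adjusted p = 0.141, limma). HSF2, a related factor that forms trimers with HSF1, was measured at 6.75, 6.31 and 7.91 FPKM in GapNC and at 10.8, 13.3 and 8.63 FPKM in GapC9. GapC9 lay above, GapC9 replicate 3 coming near the controls (log2 fold change 0.62, SE 0.19, adjusted p = 0.105, limma). BAG3, a nucleotide exchange factor and itself a heat shock gene, was measured at 61.2, 54.8 and 46.6 FPKM in GapNC and at 30.3, 48.8 and 49.5 FPKM in GapC9. GapC9 replicate 1 was low and the groups overlapped (log2 fold change −0.36, SE 0.22, adjusted p = 0.357, limma).

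Of the 17 symbols with a heat shock element of 2 units in a window, 15 rows were tested and 0 were called by limma (6.99% of all rows), with 3 at an unadjusted p under 0.05 (25.9% of all rows). Their means were higher in 6 and lower in 9, with a median log2 fold change of −0.021 (−0.076 over all rows) and a lowest adjusted p of 0.0805, that of HSPB6. For the 7 rows with the form of 3 units, log2 fold changes ran from −0.55 to 0.10. Of these, 0 had an unadjusted p under 0.05 (25.9% of all rows), and the lowest adjusted p was 0.485 (HSPD1, limma).

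The ER chaperones were measured in 11 rows, 6 with higher and 5 with lower means in GapC9. By limma 0 were called (6.99% of all rows) and 3 had an unadjusted p under 0.05 (27.3%, beside 25.9% of all rows). The groups did not overlap in 4 of the 11 rows (36.4%, beside 34.2% of all rows). GapC9 lay above in these 4 of 11 (DNAJB9, DNAJC1, DNAJC3 and HSPA13), beside 12.6% of all rows tested. It lay below in 0 of 11, beside 21.6%. The median log2 fold change was 0.037 (−0.076 over all rows). HSPA5 (BiP), the HSP70 of the ER, was measured at 163, 168 and 161 FPKM in GapNC and at 166, 108 and 159 FPKM in GapC9. GapC9 replicate 2 was low and the other 5 libraries lay together (log2 fold change −0.21, SE 0.18, adjusted p = 0.497, limma). HSP90B1 (GRP94), the HSP90 of the ER, was measured at 174, 207 and 201 FPKM in GapNC and at 193, 201 and 202 FPKM in GapC9. The groups overlapped (log2 fold change 0.037, SE 0.092, adjusted p = 0.836, limma). These are the 2 members with the ER stress element printed above.

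Larger fitted differences in both directions, none past an adjusted p of 0.05, were measured for other ER members. DNAJC1 was measured at 5.81, 6.71 and 5.71 FPKM in GapNC and at 8.37, 7.40 and 7.17 FPKM in GapC9. Its groups lay apart (log2 fold change 0.33, SE 0.12, adjusted p = 0.158, limma). The groups overlapped for DNAJB14 (log2 fold change −0.22, adjusted p = 0.776, limma). They also overlapped for DNAJC25, in a row with GNG10 (−0.25, adjusted p = 0.651, limma). DNAJB9 (ERdj4), a J protein that restrains the stress sensor IRE1, was measured at 2.77, 3.66 and 4.0 FPKM in GapNC and at 5.25, 6.08 and 6.03 FPKM in GapC9. The groups lay apart, with a log2 fold change of 0.73 (SE 0.17) and an adjusted p of 0.0561 by limma, which was 0.0423 when rows under 1 FPKM were left out. Exons of PNPLA8 and THAP5 overlap DNAJB9 on the other strand, and without strand their reads cannot be told apart. HSPA13, an HSP70 of the microsomes, was measured at 6.99, 10.2 and 10.7 FPKM in GapNC and at 13.1, 15.2 and 15.2 FPKM in GapC9. GapC9 lay above in every library (log2 fold change 0.65, SE 0.19, adjusted p = 0.0954, limma). DNAJC3, an inhibitor of the kinases PERK and PKR, was measured at 10.9, 13.1 and 4.73 FPKM in GapNC and at 13.9, 16.4 and 15.3 FPKM in GapC9. GapNC replicate 3 was far below the rest (log2 fold change 0.78, SE 0.38, adjusted p = 0.251, limma). DNAJB11 (ERdj3), a secreted and luminal partner of BiP, was measured at 14.3, 13.1 and 10.8 FPKM in GapNC and at 15.8, 14.2 and 19.0 FPKM in GapC9. The groups overlapped narrowly (log2 fold change 0.35, SE 0.16, adjusted p = 0.231, limma). The row of DNAJB11 also holds AC068631.2 and AC068631.3. DNAJC10 (ERdj5), which reduces disulfides in misfolded proteins, was measured at 3.36, 4.75 and 5.0 FPKM in GapNC and at 3.15, 3.34 and 3.54 FPKM in GapC9. GapNC replicate 1 lay among the GapC9 libraries (log2 fold change −0.36, SE 0.18, adjusted p = 0.260, limma). DNAJB12, a J protein of the ER membrane, was measured at 9.03, 4.79 and 5.82 FPKM in GapNC and at 6.07, 3.40 and 5.13 FPKM in GapC9. The groups overlapped, GapNC replicate 1 being the highest (log2 fold change −0.41, SE 0.31, adjusted p = 0.452, limma).

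In mitochondria, imported proteins pass from the HSP70 HSPA9 (mortalin) to the chaperonin made of HSPD1 (HSP60) and HSPE1 (HSP10). Of 7 rows on this list 0 were called by limma (6.99% of all rows) and 2 had an unadjusted p under 0.05 (28.6%, beside 25.9%), with a median log2 fold change of 0.10 (−0.076 over all rows). Groups were apart without overlap in 3 (42.9%, beside 34.2% of all rows), GapC9 lying above in HSPA9 and below in DNAJC11 and DNAJC15. HSPA9 was measured at 121, 135 and 129 FPKM in GapNC and at 154, 161 and 157 FPKM in GapC9. Its groups were narrow and apart, with a log2 fold change of 0.29 (SE 0.077, adjusted p = 0.0782, limma). HSPD1 was measured at 338, 387 and 343 FPKM in GapNC and at 375, 392 and 377 FPKM in GapC9. GapNC replicate 2 lay among the GapC9 libraries (log2 fold change 0.10, SE 0.082, adjusted p = 0.485, limma). HSPE1, in a row with MOB4, was measured at 37.3, 47.8 and 45.9 FPKM in GapNC and at 45.6, 51.4 and 53.3 FPKM in GapC9. The groups overlapped (log2 fold change 0.20, SE 0.13, adjusted p = 0.372, limma). The ratio of HSPD1 to HSPE1 ran from 7.08 to 9.05 over the 6 libraries. TRAP1, the HSP90 of mitochondria, was not among these 7 rows and is given with the co-factors.

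Among the cytosolic HSP110 proteins, HSPA4 was measured at 64.2, 73.5 and 72.4 FPKM in GapNC and at 87.0, 90.4 and 73.7 FPKM in GapC9. The groups did not overlap, though GapC9 replicate 3 came close to the controls (log2 fold change 0.25, SE 0.11, adjusted p = 0.221, limma). HSPA14, a ribosome-linked HSP70 given in a row with a second name, was measured at 11.4, 12.9 and 13.0 FPKM in GapNC and at 9.75, 9.83 and 10.2 FPKM in GapC9. Every GapC9 library lay below (log2 fold change −0.32, SE 0.098, adjusted p = 0.110, limma).

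The 9 rows below the filter were DNAJB7, DNAJB13, DNAJC5B, HSPA7, HSP90AA4P, HSP90AA5P, HSPB2, HSPB7 and HSPB9, several of them known from testis or muscle. Of the 77 rows, 11 were listed at 0 in at least 1 library, 5 of these among the rows tested (HSP90AA2P, HSPA2, HSPA6, HSPB6 and the second row of DNAJC7). HSP90AA2P was listed at 0.644 FPKM in GapNC replicate 2 and at 0 in the other 5 libraries. Exons of other genes overlap HSP90AA1 (WDR20), HSP90B1 (C12orf73), HSF1 (DGAT1), DNAJB1 (TECR), DNAJB11 (TBCCD1) and DNAJC11 (THAP3) on the opposite strand. They also overlap DNAJC2 (PMPCB), DNAJC7 (CNP and NKIRAS2) and DNAJC14 (ORMDL2 and TMEM198B). Further members with such overlap were DNAJA4, DNAJB7, DNAJB13, DNAJC4, DNAJC5G, DNAJC9, DNAJC16, DNAJC17, DNAJC19, DNAJC27, HSPA4L, HSPA12A and HSPB2. Exons of HSPD1 and HSPE1 overlap each other. Without strand the reads of such overlapping genes cannot be told apart.

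Co-factors and further chaperones outside the heat shock and DNAJ names were taken from a list of 55 genes of the chaperone system. All are called co-factors here, though some, such as TRAP1 and the CCT genes, are chaperones themselves. Of the 55, 54 were tested. By limma 0 rose and 3 fell (SIL1, HSPBP1 and TRAP1), or 5.56%, beside 6.99% of all rows. An unadjusted p under 0.05 was found for 16 (29.6%, beside 25.9%), and 24 had groups that did not overlap (44.4%, beside 34.2%). GapC9 lay above in 13 of the 54 and below in 11 of the 54, beside 12.6% and 21.6% of all rows tested. The list's median log2 fold change was 0.035, beside −0.076 over all rows. HSPBP1, a nucleotide exchange factor of cytosolic HSP70, was measured at 29, 20.1 and 17.2 FPKM in GapNC and at 11.2, 9.16 and 7.99 FPKM in GapC9. Every GapC9 library lay below the lowest control, and HSPBP1 fell by 1.20 on the log2 scale (SE 0.23, adjusted p = 0.0397, limma). SIL1, the nucleotide exchange factor of BiP, was measured at 3.54, 2.70 and 3.35 FPKM in GapNC and at 1.68, 1.81 and 1.71 FPKM in GapC9. The GapC9 libraries were tight and below, and SIL1 fell by 0.84 (SE 0.14, adjusted p = 0.0311, limma). TRAP1, the HSP90 of mitochondria, was measured at 45.6, 36.7 and 33.2 FPKM in GapNC and at 25.8, 22.3 and 23.8 FPKM in GapC9. The groups lay apart, and TRAP1 fell by 0.67 (SE 0.14, adjusted p = 0.0481, limma). HSPBP1 transcripts have a GC content of 65.5%, and after a correction of each library for GC content, added after the data were seen, its log2 fold change was −0.79 (adjusted p = 0.0079), that of SIL1 −0.66 (adjusted p = 0.0218) and that of TRAP1 −0.45 (adjusted p = 0.0113) (limma). All 3 calls were lost with any 1 of the 6 libraries left out, the adjusted p then running from 0.0549 to 0.135 for HSPBP1, 0.0549 to 0.116 for SIL1 and 0.0559 to 0.164 for TRAP1. Exons of SIL1 and TRAP1 overlap other genes on the opposite strand. HSPBAP1, a binding partner of HSPB1, was measured at 0.721, 0.801 and 0.741 FPKM in GapNC and at 0.475, 0.598 and 0.542 FPKM in GapC9. The groups did not overlap (log2 fold change −0.42, SE 0.15, adjusted p = 0.148, limma).

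The GC content of the transcripts moved with these fold changes. Across the 57 members of at least 1 FPKM, Spearman's rho of GC content against log2 fold change was −0.41, beside −0.33 across 10117 rows at that level. These are correlations across genes, which share the 6 libraries and are not independent replicates. Without GapNC replicate 1 they were −0.20 and −0.14. The deviation of GapNC replicate 1 from the mean of the libraries had a rho of 0.62 with GC content across those rows, and the other 5 libraries ran from −0.38 to 0.029.

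After a smooth correction of each library for GC content, chosen after the data were seen, limma called 7 members as higher and 3 as lower, beside 6.78% and 7.76% of all rows. The higher members were DNAJB2, DNAJB9, DNAJC1, DNAJC21, HSPA9, HSPA13 and HSPB6, and the lower were DNAJC10, DNAJC13 and HSPA14. DNAJC13 then had a log2 fold change of −1.03 (SE 0.066, adjusted p = 0.0035) and DNAJC21 of 0.57 (SE 0.097, adjusted p = 0.0196). HSPA9 had 0.32 (SE 0.050, adjusted p = 0.0154) and DNAJB2, a J protein that hands clients to the proteasome, had 0.82 (SE 0.067, adjusted p = 0.0047). HSF1, HSPB1 and HSPB8, which were not called before the correction, were not called after it either, at −0.34, −0.20 and −0.88.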

How the data were processed

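RNA-seq of 6 HCT-116 libraries (3 GapNC, 3 GapC9) was used. The authors purified poly(A) RNA, sequenced it in pairs on an Illumina HiSeq, and deposited 1 table of FPKM values for genes and assembled loci. The submitters' processing notes name HISAT2 2.0, StringTie 1.3.0 and Bowtie 0.12.2, and mm8, a mouse build that cannot be that of these human reads. The human build and the strand setting were not given in the sources used here. Groups came from the transfection labels, columns were matched by name, and 0 columns were left unused. The authors' annotation columns were used for names alone. The table holds no counts, so no counting error was given and edgeR, used by the authors, was not run. StringTie can join neighboring genes, and 10 member rows hold more than 1 name. They are the rows of DNAJB4, DNAJB11, DNAJC4, DNAJC9, DNAJC14, DNAJC25, HSPA12A, HSPA14, HSPA1A/HSPA1B and HSPE1.

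In R 4.3.3, limma 3.58.1 (lmFit, eBayes with trend) was fitted to log2(FPKM + 0.1) of rows that averaged 0.1 FPKM or more, with Benjamini-Hochberg adjustment over the 16028 rows tested. A fold change on this scale understates that of genes with low values. The other threshold, mean FPKM that differed by a ratio of 2 or more, or 0.5 or less, at an unadjusted p under 0.05, follows the study. The method was also run on simulated data with independent normal noise in each row and library. That noise holds no shift of a library with GC content, so the run cannot tell how many calls here are false. Positions, GC content and exon overlaps came from GENCODE v29 on GRCh38, and promoters from RefSeq. Tables and figures were made in Python 3.11.15 with pandas 2.3.3 and matplotlib 3.10.9.

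The members and lists were chosen with earlier results of these data known. Genes named by rule were members past either threshold, the 2 most abundant of each class, the stress-inducible list, HSF1, HSF2, BAG3, HSPBP1, HSPBAP1 and called co-factors. Other members were named after their values were seen. Alternatives were pseudocounts of 1 and 0.01, a filter of 1 FPKM or none, median scaling, limma without the trend, a replicate block and each library left out. A GC correction (lowess, span 0.3) was added after seeing the data.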

Additional observations from a re-analysis of the deposited data

How the results depend on the processing

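With a filter of at least 1 FPKM limma called 2 members as higher, 0 passed the fold threshold as higher, and 1 co-factor was called as higher. After the GC correction 7 members and 7 co-factors were called as higher, beside 6.78% of all rows. As lower 3 members and 4 co-factors were called, beside 7.76% of all rows. The share of all rows called was counted only for this setting and the settings of the report, so the other counts here have no such share beside them. With a replicate block 0 members were called in either direction and 0 co-factors as lower. The deviations of libraries with equal replicate numbers correlated at 0.097, 0.040 and 0.024 across rows. The labels do not say whether equal numbers were prepared together, and low correlations cannot exclude it, so pairing was not settled. With no filter 2 members passed the fold threshold as lower and 0 co-factors were called as lower. Without the trend these were 2 and 1. Under median scaling 0 members passed the fold threshold as lower, 2 co-factors were called as higher, and the members' median log2 fold change was 0.11 (all rows −0.076 before, 0.034 after). With 1 library left out the called members ran from 0 to 3 higher and 0 to 1 lower, those past the fold threshold as lower from 0 to 2, the co-factors from 0 to 1 higher and 0 to 0 lower, and the median from −0.024 to 0.061. Of 31 genes followed singly, 7 reversed sign under some setting, and none of the 7 was called with the settings of the report. Median scaling gave 0.084 for HSP90AA1, 0.089 for HSP90AB1 and 0.095 for HSPA1A/HSPA1B. The GC correction gave −0.017 for DNAJA1, 0.020 for HSP90AB1, 0.24 for HSPA1A/HSPA1B and −0.10 for HSPH1, and a pseudocount of 1 gave 0.0028 for HSPA1A/HSPA1B. With 1 library left out these ran from −0.081 to 0.17 for DNAJA1, −0.021 to 0.28 for DNAJB4, −0.11 to 0.049 for HSP90AA1, −0.054 to 0.037 for HSP90AB1, −0.65 to 1.1 for HSPA1A/HSPA1B, −0.37 to 0.00021 for HSPA8 and −0.070 to 0.095 for HSPH1. The causes were not tested. With 3 libraries a group and no counts, small changes of low genes were not resolved.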
